A study of Mus musculus with 138 samples.

Results

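The frontal suture is the midline joint between the left and right frontal bones of the skull roof, and it was examined here on embryonic day E16.5. The data are 10 laser-captured bulk RNA libraries out of 138 samples in the series. They were chosen by their labels (suture, stage and region): 5 libraries of suture mesenchyme (SM), the unmineralized tissue between the bones, and 5 of the frontal osteogenic front (OF), the growing bone edge. The embryos were of the C57BL/6J strain, wild type, and carried no transgene or treatment. Each of 5 embryos gave both regions, which makes the regions pairs within an embryo, and the embryos came from 2 litters (embryos 1 and 2, and embryos 3 to 5). Captured material is a mixture of the cells in each region, its RNA was amplified before sequencing, and a library therefore measures a tissue rather than 1 cell type.

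The libraries held between 10588823 and 18450955 counted read pairs. Levels are given as CPM, the count of a gene relative to the library total after scaling by the TMM method, and fold changes are OF over SM. The region labels were checked against marker genes. Sp7, Ibsp, Runx2 and Alpl of osteoblasts were higher in every OF library than in every SM library, and the mesenchyme gene Prrx1 was higher in SM (802 ± 103 CPM in SM and 572 ± 46.5 CPM in OF, SD, n = 5). The mesenchyme genes Pdgfra (log2 fold change -0.32, adjusted p = 0.0852) and Twist1 (-0.46, adjusted p = 0.11) and the osteoblast gene Col1a1 (0.19, adjusted p = 0.648) did not pass the test. The first axis of variation separated OF from SM and held 42.6% of the variance. Mitochondrial transcripts took 19.4 ± 2.24% of counts in SM and 23.2 ± 3.15% in OF and were higher in OF in 5 of 5 embryos (exact permutation test over libraries, two-sided p = 0.0556, while an exact sign-flip test over 5 pairs cannot pass 0.05). The part of this share in the results below was not tested.

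Calvarial bones form by intramembranous ossification: mesenchymal cells turn directly into osteoblasts, without a cartilage model. RUNX2 commits cells to this lineage and SP7 acts downstream of it, after which the cells secrete type I collagen and the acidic phosphoproteins that accompany mineral. The mesenchyme of the suture stays unossified and supplies cells to the bone edges, and Hedgehog, Wnt, FGF, BMP and TGF-beta signals pass between the regions. In Hedgehog signalling the ligand IHH binds the receptor PTCH1, which releases SMO from inhibition and activates the GLI transcription factors. Ptch1, Gli1 and Hhip are at once pathway members and target genes.

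Of the bone genes described below, 3 of the list of bone matrix and mineralization genes carried in their promoter window the letters TGTGGTT, which RUNX factors are known to bind, or the reverse complement AACCACA. Dmp1 and Spp1 each have a second window at another RefSeq start, which held no match. The windows with a match are shown because all 3 genes were higher in OF. The sequences are the 250 bases before the RefSeq start (GRCm38.p6, plus strand, 5′ to 3′), and capitals mark the match. That of Dmp1, which encodes an acidic matrix protein of mineralizing cells, is chr5:104202367-104202616. That of Spp1 (osteopontin) is chr5:104434861-104435110, and that of Mmp13, a collagenase, is chr9:7272264-7272513.
Dmp1: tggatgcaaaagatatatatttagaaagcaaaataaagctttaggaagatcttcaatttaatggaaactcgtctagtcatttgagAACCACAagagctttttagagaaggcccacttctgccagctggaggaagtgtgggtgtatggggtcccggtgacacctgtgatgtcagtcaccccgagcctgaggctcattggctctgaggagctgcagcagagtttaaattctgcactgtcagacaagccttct
Spp1: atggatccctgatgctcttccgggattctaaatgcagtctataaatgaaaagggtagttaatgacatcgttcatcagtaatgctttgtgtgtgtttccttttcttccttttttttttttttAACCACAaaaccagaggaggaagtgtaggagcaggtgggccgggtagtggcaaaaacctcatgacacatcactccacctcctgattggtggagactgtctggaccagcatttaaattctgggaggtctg
Mmp13: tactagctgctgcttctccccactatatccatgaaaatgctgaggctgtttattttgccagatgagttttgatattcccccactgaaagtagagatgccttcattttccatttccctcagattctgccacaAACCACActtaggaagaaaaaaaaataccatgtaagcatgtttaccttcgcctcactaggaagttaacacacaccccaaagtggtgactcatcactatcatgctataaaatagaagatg
All 3 matches stood in the reverse orientation, and they began 165, 129 and 119 bases before the start in Dmp1, Spp1 and Mmp13. The letters were in 3 of 21 windows of the 17 list genes with a RefSeq window. They were in 501 of 15251 windows of all genes tested (3.29%), in 34 of 1037 windows of genes higher in OF (3.28%) and in 12 of 606 of genes higher in SM (1.98%). A match describes letters and not binding.

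Across the transcriptome the OF stood apart from the SM in both directions. Of 19768 genes tested, 1743 (8.82%) passed an adjusted p of 0.05 in the quasi-likelihood test of edgeR (Benjamini-Hochberg adjusted), with the embryo as a block. Of these, 1122 (5.68%) were higher in OF and 621 (3.14%) were higher in SM. The median log2 fold change of all genes tested was -0.009. The direction was the same in all 5 embryos for 1105 of the genes higher in OF and 617 of those higher in SM, and 509 and 278 differed by a log2 fold change of at least 1. By range alone, the 5 OF libraries lay above the 5 SM libraries for 1854 genes (9.38%) and below them for 1763 (8.92%). This fit takes its spread from all 100 first libraries of the 4 sutures. A fit of the 10 frontal libraries alone called 5662 genes, 2950 higher in OF (14.9%) and 2712 in SM (13.7%), and all 1743 genes kept their call and direction in it. The share of calls that were higher in OF differed between settings. It was 64.4% in the main fit with TMM, 54.2% with median-ratio size factors and 55.9% with library totals. With TMM kept, it was 55% with voom and 52.1% with the 10 libraries alone. Within the litter of embryos 1 and 2 the test called 469 genes (346 higher in OF), and within that of embryos 3 to 5 it called 970 (670 higher in OF).

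**Figure D1:**
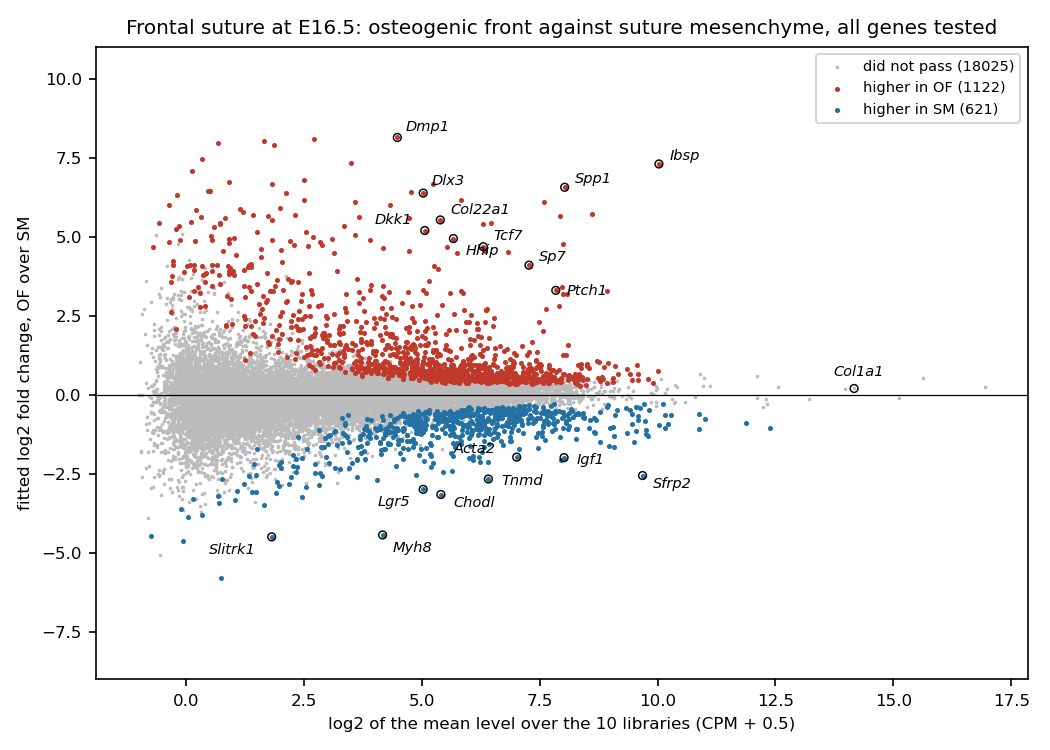
Fitted log2 fold change of OF over SM (vertical axis) against the log2 mean level over the 10 libraries (horizontal axis, CPM + 0.5), 1 point per gene tested, with genes that passed the test in colour. The 1122 genes higher in OF reach larger fold changes than the 621 higher in SM, and Dmp1, Ibsp and Spp1 are among the highest of the labelled points.

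The genes with the highest fold changes in OF included mineralization genes. By rule, these were the 12 with the highest fitted value among genes called, in the same direction in 5 embryos and with at least 5 CPM. They comprised Dmp1, Bglap2, Ibsp, Phex and Spp1, the ligand gene Ihh, the homeobox gene Dlx3 and the amino acid transporter gene Slc36a2, together with Lipi, Rhbdl2, Gm42793 and Gm13261. Slc36a2 gave 0, 1.27, 1.21, 1.12 and 0 CPM in SM of embryos 1 to 5 and 55.8, 66.7, 38.3, 74.3 and 27.8 CPM in OF (log2 fold change 6.41 ± 0.66, adjusted p = 2.55e-11). Lipi, a phospholipase gene, and Rhbdl2, a rhomboid protease gene, reached at most 0.259 and 0.241 CPM in SM and lay between 13.1 and 28.1 CPM and between 7.51 and 12.3 CPM in OF. In 4 of these 12 genes (Bglap2, Gm42793, Gm13261 and Ihh) the 5 SM libraries together held 2, 3, 1 and 4 read pairs, so their fitted fold depends on the prior count and is not given. Gm42793 lies inside Spp1 and Gm13261 overlaps Sfmbt2 (log2 fold change 1.64, adjusted p = 0.000761). The counting ignored strand, and reads of such pairs cannot be told apart.

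The transcription factors that direct osteoblast formation were mostly higher in OF. Of 16 measured genes on this list, 11 were higher in OF, 3 were higher in SM and 2 did not pass the test (11 and 5 called with the 10 libraries alone), with a median log2 fold change of 1.53. Sp7, which is required for osteoblast formation, was measured at 29.4, 10.5, 22, 17 and 11.2 CPM in SM of embryos 1 to 5 and at 355, 231, 261, 311 and 294 CPM in OF (log2 fold change 4.10 ± 0.28, SE, adjusted p = 5.93e-18). Every OF library was far above every SM library. Runx2 was already abundant in SM, with 415, 284, 306, 334 and 311 CPM, against 725, 586, 608, 626 and 773 CPM in OF (1.01 ± 0.13, adjusted p = 1.46e-08), so that the groups did not overlap although the fold was 2.01. The homeobox gene Dlx3 lay near the detection limit in SM (0.712, 0.61, 0.926, 1.04 and 0.509 CPM) and at 92.8, 53.5, 57, 64.1 and 50.7 CPM in OF (6.38 ± 0.61, adjusted p = 1.81e-12). Its relative Dlx5 (2.05 ± 0.18), Mef2c (2.80 ± 0.21), the vitamin D receptor gene Vdr (4.64 ± 0.47), Runx3 (3.67 ± 0.29) and Creb3l1 (0.83 ± 0.16) were higher in OF too.

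The 3 factors higher in SM were Msx2, Msx1 and Zfp521. Msx2, a homeobox gene in which both gain and loss of function disturb human skull bones, gave 76.3, 53.3, 80.5, 53 and 74.5 CPM in SM and 32.1, 19.5, 32.4, 22.5 and 33.3 CPM in OF (-1.28 ± 0.19, adjusted p = 8.91e-07). No OF library reached the lowest SM library. Msx1 (-1.22 ± 0.24) and Zfp521, a zinc finger gene known to antagonize RUNX2 (-0.82 ± 0.12), also fell in OF. The Msx and the Dlx genes of the list thus differed in opposite directions.

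The mineral-associated genes had a higher median fold change than any other gene list described. Of 22 measured genes of bone matrix and mineralization, 17 were higher in OF, none was higher in SM (none in the 10-library fit either, which called 18 higher in OF), and 5 did not pass the test. The median log2 fold change was 4.68. Ibsp, Dmp1, Mepe and Spp1, which encode acidic phosphoproteins of the SIBLING family, are neighbours on chromosome 5 (mm10, plus strand): Dmp1 at chr5:104202613-104214102, Ibsp at chr5:104299171-104311469, Mepe at chr5:104325329-104338611 and Spp1 at chr5:104435118-104441050. All 4 were higher in OF. Ibsp (bone sialoprotein) was measured at 13.5, 20.9, 34.3, 20.1 and 0 CPM in SM and at 2468, 2272, 1845, 2719 and 1053 CPM in OF (7.30 ± 0.85, adjusted p = 9.69e-10). Spp1 gave 3.24, 7.98, 3.13, 7.38 and 2.8 CPM in SM against 838, 609, 298, 727 and 113 CPM in OF (6.56 ± 0.63, adjusted p = 2.07e-12). In both genes the OF of embryo 5 was the lowest of the fronts and still far above every SM library. Dmp1 gave 0, 0.188, 0, 0.321 and 0.191 CPM in SM and 66.3, 63.7, 36.2, 44.2 and 7.4 CPM in OF (8.14 ± 0.92, adjusted p = 7.14e-10, on 11 read pairs in SM). Mepe was listed at 0 in all 5 SM libraries and lay between 0.172 and 0.845 CPM in OF, at least 14.6-fold higher when SM is set to 3 counts over the group (adjusted p = 0.0193). Its call was lost without embryo 1, 3 or 4 (adjusted p up to 0.066). Per kilobase of transcript, Ibsp reached a mean level of 1002 FPKM in OF, above Spp1 at 314 FPKM, whereas Col1a1 stood at 2595 FPKM in SM and 3011 FPKM in OF.

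Enzymes of mineral deposition and other bone genes of the list that passed the test are given next. Alpl, the phosphatase that removes the mineralization inhibitor pyrophosphate, gave 45.5, 45.6, 46.2, 32.9 and 47.7 CPM in SM and 526, 433, 441, 481 and 414 CPM in OF (3.40 ± 0.28, adjusted p = 4.24e-15). Higher in OF were also Enpp1, which makes pyrophosphate (2.26 ± 0.26), Phex, an endopeptidase of phosphate balance (6.68 ± 0.66), Smpd3, a sphingomyelinase (6.11 ± 0.62), Ifitm5, an osteoblast membrane protein gene (5.39 ± 0.43), and Omd (osteomodulin, 3.42 ± 0.33). Bglap2, an osteocalcin gene, had 0, 0.0938, 0, 0 and 0 CPM in SM and 8.65, 7.13, 5.05, 8.79 and 1.72 CPM in OF (adjusted p = 5.31e-06). Bglap gave 1.09 to 7.59 CPM in OF (adjusted p = 0.0064). The osteocalcin genes are near-identical copies, and how reads divide between them is uncertain. Mmp13 was measured at 0.648, 0.704, 0.285, 0.161 and 0.446 CPM in SM and at 17.9, 22.8, 3.88, 14.6 and 7.17 CPM in OF (4.74 ± 0.71, adjusted p = 7.34e-07). The levels of this list varied among the fronts: the OF of embryo 5 held the lowest value for 12 of the 17 genes higher in OF.

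**Figure D2:**
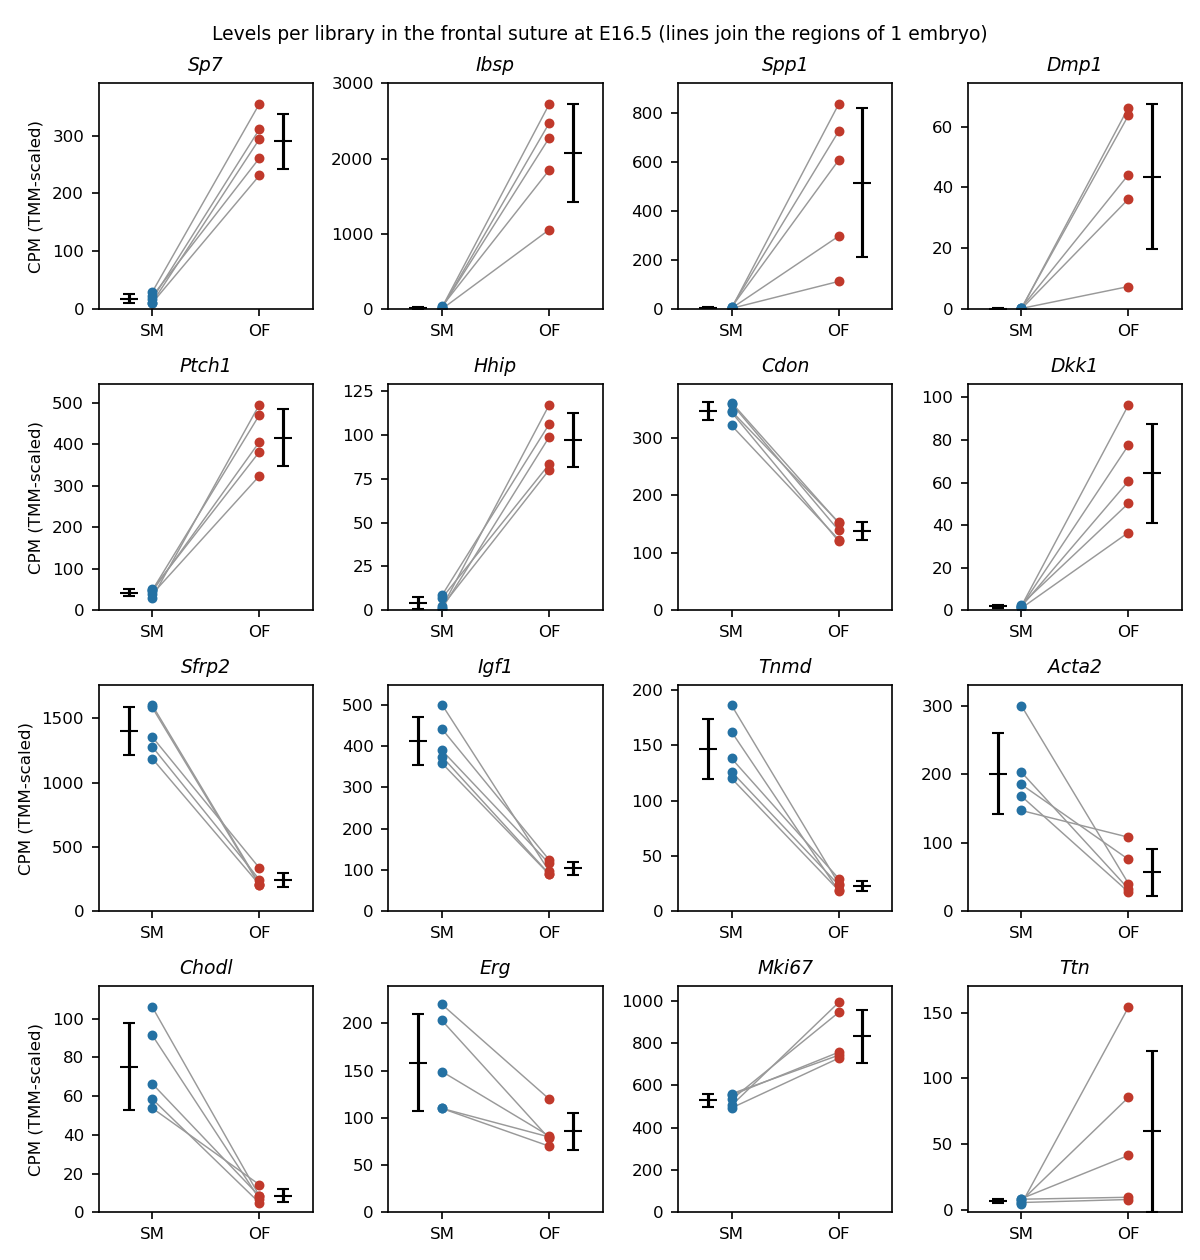
CPM (TMM-scaled, linear axis from 0) of 16 genes in SM and OF, with lines that join the regions of 1 embryo and bars that give mean ± SD (n = 5). Ibsp, Spp1 and Dmp1 are near 0 in SM and lowest in embryo 5 among the fronts, Sfrp2, Igf1, Tnmd and Chodl fall in each embryo, and Ttn is high only in the fronts of embryos 2, 3 and 4.

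The genes of type I collagen, the main protein of bone, differed little between the regions, and other collagen genes gave calls in both directions. Col1a1 gave 15799 to 18323 CPM in SM and 15265 to 23534 CPM in OF (log2 fold change 0.19, adjusted p = 0.648), and Col1a2 gave 0.16 (adjusted p = 0.626). Neither passed the test, and the groups overlapped. Without the filter on low counts, which left the fold changes at 0.20 and 0.17, both passed (adjusted p = 0.000498 and 0.0121). Of 34 measured collagen chain genes, 4 were higher in OF and 12 in SM (5 and 20 with the 10 libraries alone), with a median of -0.47. Over all genes the shares were 5.68% in OF and 3.14% in SM (14.9% and 13.7% with the 10 libraries alone). The OF count with the 10 libraries alone lies near its share. The 4 genes higher in OF were Col22a1, Col24a1, Col11a2 and Col13a1. Col22a1 gave 0.648, 1.45, 2.64, 3.61 and 0.891 CPM in SM and 108, 85.6, 69.2, 108 and 35.7 CPM in OF (5.53 ± 0.59, adjusted p = 5.45e-11), and the fibril collagen gene Col24a1 rose by 3.18 ± 0.21. Col11a2 (4.53 ± 0.39) and the transmembrane collagen gene Col13a1 (2.49 ± 0.43) were likewise higher, and all 4 were lowest in the front of embryo 5. Among the 12 higher in SM, Col12a1, a fibril-associated collagen of dense connective tissue, gave 8500, 6268, 6639, 7219 and 7698 CPM in SM and 3542, 2868, 3417, 3411 and 4070 CPM in OF (-1.07 ± 0.11, adjusted p = 2.67e-11). Col3a1 (-0.90 ± 0.12), Col14a1 (-2.06 ± 0.34) and Col27a1 (-1.31 ± 0.15) fell as well. The machinery that folds, hydroxylates and crosslinks collagen was higher in OF for 11 of 22 measured genes and higher in SM for none by this fit (4 in SM by the 10-library fit, which called 14 in OF), with a median of 0.39. It included the prolyl hydroxylase genes P4ha1 (1.34 ± 0.15) and P4ha2 (1.38 ± 0.18), the collagen chaperone gene Serpinh1 (0.64 ± 0.16, and adjusted p = 0.0536 with library totals), the lysyl oxidase gene Loxl4 (4.55 ± 0.42) and Pcolce2 (3.61 ± 0.64).

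**Figure D3:**
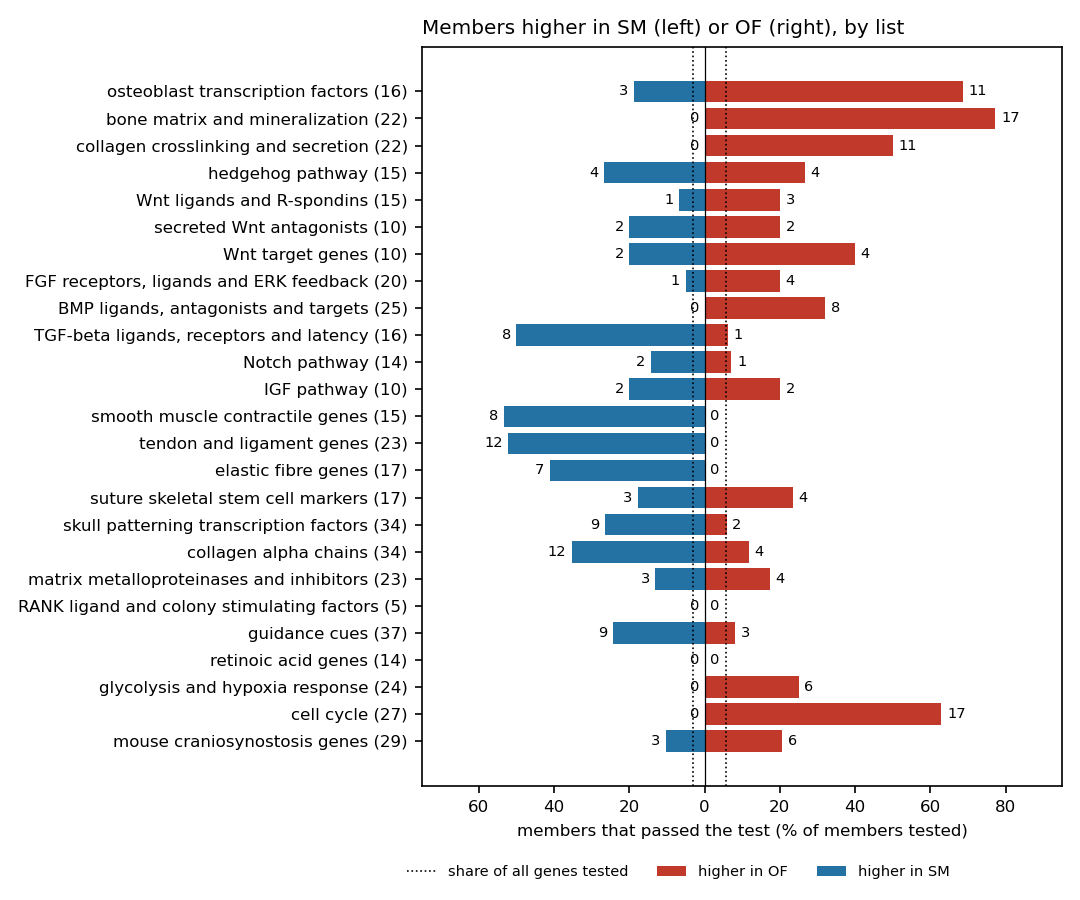
Percentage of measured members of each gene list that passed the test, higher in OF to the right and higher in SM to the left, with the number at each bar and the number measured in brackets. Dotted lines give the share of all genes tested (5.68% and 3.14%). Bone matrix, osteoblast factors and cell cycle extend to the right, and smooth muscle, tendon, elastic fibre and TGF-beta lists extend to the left.

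The Hedgehog pathway genes that passed the test divided by role. Of 15 measured members, the ligand Ihh, the receptor and target Ptch1, and the targets Gli1 and Hhip were higher in OF, the ligand-binding co-receptors Cdon, Boc and Gas1 and the ligand-release gene Scube2 were higher in SM, and 7 did not pass the test. The median log2 fold change was 0.02, and the 10 libraries alone gave 6 calls in each direction. Ihh was nearly absent from SM (0.0648, 0, 0, 0.161 and 0.0637 CPM, 4 read pairs in all) and gave 4.42, 4.43, 6.16, 7.02 and 8.03 CPM in OF (adjusted p = 8.16e-09). Ptch1 (chr13:63508328-63573598, minus strand) was measured at 47.9, 38.8, 49.9, 45.3 and 29.7 CPM in SM and at 471, 324, 382, 406 and 496 CPM in OF (3.30 ± 0.20, adjusted p = 5.94e-20). Hhip (chr8:79965851-80058006, minus strand), which encodes a decoy that binds Hedgehog ligands, gave 1.49, 2.11, 6.84, 8.43 and 0.764 CPM in SM and 117, 80, 83.2, 106 and 98.7 CPM in OF (4.94 ± 0.42, adjusted p = 2.05e-14). Gli1 (chr10:127329882-127341974, minus strand) gave 8.16, 6.76, 8.19, 6.82 and 3.37 CPM in SM and 69.1, 55.7, 58.5, 59.5 and 58.3 CPM in OF (3.22 ± 0.30, adjusted p = 8.09e-13). In each of these 4 genes the lowest front exceeded the highest mesenchyme. Gli1 overlaps Arhgap9 and Ptch1 overlaps A930032L01Rik in the annotation, so part of their reads may belong to the neighbour.

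The co-receptors ran the other way. Cdon gave 360, 322, 362, 345 and 347 CPM in SM and 139, 123, 152, 120 and 153 CPM in OF (-1.34 ± 0.16, adjusted p = 3.45e-09). Boc gave 125, 125, 112, 104 and 110 CPM in SM and 62.1, 56.4, 51.4, 51.6 and 46.4 CPM in OF (-1.11 ± 0.18, adjusted p = 3.57e-06). Gas1 gave 55.8, 53.2, 47.1, 52.8 and 50 CPM in SM and 21.9, 24, 22.8, 18.3 and 19.2 CPM in OF (-1.29 ± 0.21, adjusted p = 3.81e-06). The 3 co-receptors were thus lower in every OF library than in any SM library, and Scube2 fell by 2.07 on the log2 scale. The signal transducer Smo (-0.14, adjusted p = 0.842), Gli2 (0.31, adjusted p = 0.412) and Gli3 (-0.20, adjusted p = 0.419) did not pass the test. With the 10 libraries alone, Gli2 (adjusted p = 0.0135) and Gli3 (0.0484) passed it. None of 13 promoter windows of the Hedgehog list held the letters GGGTGGTC bound by GLI factors, which occur in 0.728% of windows of all genes tested. At that rate 13 windows of any genes would mostly hold no match, so the absence says nothing particular to the Hedgehog genes.

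**Figure D4:**
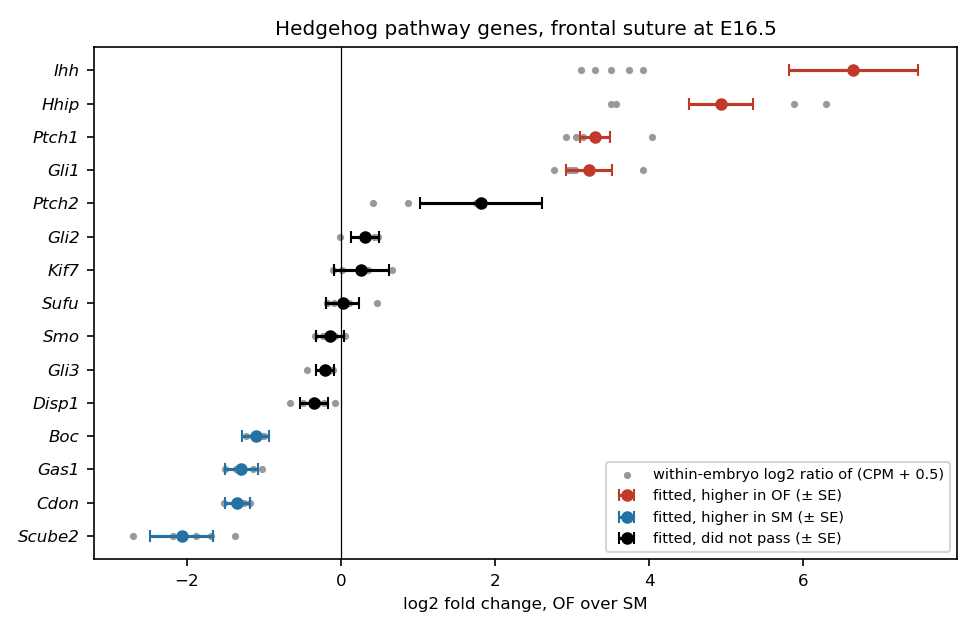
Log2 fold change of OF over SM for 15 Hedgehog pathway genes, with the fitted value ± SE (coloured where the test was passed) and the 5 within-embryo log2 ratios of (CPM + 0.5) as grey points. Ihh, Ptch1, Gli1 and Hhip lie to the right of 0 in all 5 embryos, Cdon, Boc, Gas1 and Scube2 lie to the left, and Smo, Gli2 and Gli3 lie near 0.

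Wnt pathway genes changed in both directions. Among ligands and R-spondins, 3 of 15 were higher in OF (Wnt10b, Wnt7b and Wnt10a), 1 was higher in SM (Rspo3, an enhancer of Wnt signalling, -1.78 ± 0.52), and the median was -0.02 (3 calls in each direction with the 10 libraries alone). Over all genes the shares were 5.68% in OF and 3.14% in SM (14.9% and 13.7% with the 10 libraries alone). The SM count and both 10-library counts lie near these. Wnt10b lay at 0.214 to 1.77 CPM in SM and at 14.5 to 18.1 CPM in OF (4.49 ± 0.45), Wnt7b rose by 4.09 ± 0.69, and Wnt10a rested on 1 read pair in SM and 110 in OF. Secreted antagonists split in the same manner, with 2 of 10 higher in each region (4 in OF and 3 in SM with the 10 libraries alone). Dkk1, an inhibitor of the LRP co-receptors, gave 1.81, 1.64, 2.64, 1.69 and 0.891 CPM in SM and 96.4, 60.6, 50.2, 77.5 and 36.5 CPM in OF (5.19 ± 0.45, adjusted p = 6.28e-14). Sfrp2, which binds Wnt ligands, gave 1602, 1187, 1279, 1584 and 1355 CPM in SM and 212, 207, 246, 203 and 336 CPM in OF (-2.56 ± 0.25, adjusted p = 5.38e-12). Neither gene overlapped between the regions. Wif1 was higher in OF (2.40 ± 0.22) and Dkk3 in SM (-0.69 ± 0.12).

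Genes known as Wnt targets gave 4 of 10 higher in OF and 2 higher in SM (median 0.56), and 5 and 3 with the 10 libraries alone. Tcf7, a transcription factor of the pathway, was measured at 10.9, 3, 6.77, 10.8 and 2.1 CPM in SM and at 177, 123, 133, 155 and 165 CPM in OF (4.68 ± 0.44, adjusted p = 7.6e-13). Lef1 (1.42 ± 0.32), Ccnd1 (cyclin D1, 1.55 ± 0.19) and Znrf3 (0.74 ± 0.16) were also higher in OF. Lgr5, the R-spondin receptor, moved oppositely, with 56.8, 50.6, 59.8, 64 and 52.9 CPM in SM and 6.44, 12.2, 8.15, 3.54 and 7.45 CPM in OF (-3.0 ± 0.60, adjusted p = 0.000181), and so did the feedback inhibitor Nkd1 (-0.66 ± 0.22). Axin2 did not pass the test (-0.15, adjusted p = 0.899). The call of Lef1 was lost with voom (adjusted p = 0.0535). The call of Rspo3 was lost without embryo 1, 2 or 4 (adjusted p up to 0.077) and that of Nkd1 without embryo 1, 2, 3 or 4 (up to 0.15).

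Of the FGF pathway, 4 of 20 measured genes were higher in OF and 1 was higher in SM (median 0.07), against 6 and 5 with the 10 libraries alone. Over all genes the shares were 5.68% and 3.14% (14.9% and 13.7% with the 10 libraries alone), and the SM count of this fit lies near its share. Fgfr2, in which activating mutations cause human craniosynostosis, gave 315, 294, 266, 230 and 231 CPM in SM and 535, 429, 458, 441 and 554 CPM in OF (0.86 ± 0.14, adjusted p = 2.42e-06). Fgfr3 gave 5.25, 6.57, 4.06, 4.25 and 5.28 CPM in SM and 22.2, 16.3, 22.8, 20.4 and 17.5 CPM in OF (1.97 ± 0.25, adjusted p = 8.9e-09). Both receptors were higher in every front. Etv5, a target of the pathway, rose by 1.24 ± 0.25. Fgfr1 (0.39 ± 0.12, adjusted p = 0.0186) lost its call without embryo 1, 2, 4 or 5 (adjusted p up to 0.12), and the ligand Fgf2 (-0.61 ± 0.19, adjusted p = 0.0363) lost it without any 1 of the 5 embryos (up to 0.13).

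Of 25 measured BMP genes, 8 were higher in OF, none was higher in SM and 17 did not pass the test (11 in OF and 4 in SM by the 10-library fit), with a median of 0.47. The counts in SM lie near the shares over all genes (3.14%, and 13.7% by the 10-library fit). The ligand Bmp2 rose by 1.18 ± 0.26, the inhibitory or feedback genes Bambi by 1.85 ± 0.26, Smad6 by 1.19 ± 0.34 and Nog by 2.94 ± 0.70, the transducer Smad9 by 2.46 ± 0.23, and the extracellular modulators Bmper by 2.81 ± 0.36 and Chrdl1 by 1.75 ± 0.25. Nog (noggin) was sparse, at 1.04, 0.188, 0.926, 0.883 and 0.318 CPM in SM and 8.97, 4.99, 3.11, 4.49 and 2.75 CPM in OF. Its groups did not overlap, whereas the call of Smad6 was lost without embryo 3, 4 or 5 (adjusted p up to 0.069).

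Of 16 measured TGF-beta genes, 8 were higher in SM, 1 was higher in OF and 7 did not pass the test (median -0.77), with 11 and 2 called in the 10 libraries alone. The counts in OF lie near the shares over all genes (5.68% and 14.9%). The receptor gene Tgfbr2 gave 280, 205, 245, 229 and 264 CPM in SM and 103, 111, 113, 91.9 and 109 CPM in OF (-1.21 ± 0.14, adjusted p = 5.36e-10), with no overlap. The ligands differed among themselves: Tgfb2 (-1.04 ± 0.17) and Tgfb3 (-0.48 ± 0.16) fell in OF, and Tgfb1 rose (1.77 ± 0.29). Ltbp2, of the latent TGF-beta binding protein family (-1.34 ± 0.35), and Thbs1, a known activator of the latent form (-1.65 ± 0.19), fell too. The call of Tgfb3 was lost without any 1 of the 5 embryos (adjusted p up to 0.14).

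In the IGF pathway, 2 of 10 measured genes were higher in each region (median -0.23), and 3 in OF and 4 in SM with the 10 libraries alone. The growth factor gene Igf1 gave 359, 390, 442, 375 and 501 CPM in SM and 89.9, 116, 125, 90.8 and 97.5 CPM in OF (-1.99 ± 0.28, adjusted p = 1.66e-07), and the groups did not overlap. The binding protein gene Igfbp2 fell (-1.83 ± 0.41), and Igfbp5 (0.74 ± 0.22) and Igf2r (0.50 ± 0.14) rose. Of 14 Notch genes, Hes1 was higher in OF (0.87 ± 0.27) and Notch2 (-0.51 ± 0.16) and Notch3 (-1.0 ± 0.26) were higher in SM (2 calls in each direction with the 10 libraries alone). The OF count lies near the share of all genes (5.68%), and the counts with the 10 libraries alone lie near theirs (14.9% in OF and 13.7% in SM), so they say nothing particular to the Notch genes. Leaving out 1 embryo ended the calls of Notch2 (any of the 5, adjusted p up to 0.13), Hes1 (1, 3, 4 or 5, up to 0.2), Igfbp5 (1, 2, 4 or 5, up to 0.14), Notch3 (5, 0.11) and Igf2r (4, 0.06).

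In the contractile, tendon and elastic fibre lists the genes called were higher in SM. Of 15 smooth muscle contractile genes, 8 were higher in SM and none was higher in OF (1 by the 10-library fit), with a median of -1.04. Acta2 (smooth muscle actin) gave 203, 168, 185, 300 and 147 CPM in SM and 32.8, 28.2, 75.7, 40.5 and 108 CPM in OF (-1.98 ± 0.31, adjusted p = 2.18e-06). Myl9 (-1.97 ± 0.32), Cnn1 (calponin, -2.92 ± 0.56) and Tpm1 (-1.14 ± 0.10) fell as well, and Tagln (-1.71 ± 0.56, adjusted p = 0.0393) lost its call without embryo 1, 2, 3 or 4 (adjusted p up to 0.23). Such genes also mark pericytes and vessel muscle. Of 7 pericyte markers, Notch3 and Pdgfrb were higher in SM and Cspg4 was higher in OF (0.85 ± 0.21), and 5 and 1 were called with the 10 libraries alone, with a summed level of 426 to 680 CPM in SM and 310 to 421 CPM in OF. Of 11 endothelial markers none passed (0 at this test and 0 with the 10 libraries), with sums of 312 to 742 CPM and 320 to 446 CPM. The part of pericytes in these differences was not tested, and in bulk tissue fewer cells of a type and less RNA per cell cannot be told apart. The call of Pdgfrb (-0.65 ± 0.20) was lost without embryo 1, 3, 4 or 5 (adjusted p up to 0.15), and that of Notch3 without embryo 5 (0.11).

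Tendon and ligament genes were higher in SM for 12 of 23 measured members and higher in OF for none (1 by the 10-library fit), with a median of -0.85. Tnmd (tenomodulin), a membrane protein gene of tendon, gave 162, 120, 126, 186 and 138 CPM in SM and 18.3, 18.8, 23.7, 24.9 and 29.5 CPM in OF (-2.67 ± 0.33, adjusted p = 5.48e-09). Chodl (chondrolectin) gave 106, 58.5, 53.8, 91.4 and 66.4 CPM in SM and 8.52, 4.94, 14.3, 6.96 and 8.37 CPM in OF (-3.16 ± 0.45, adjusted p = 2.1e-07). In both genes each embryo fell and the groups were far apart. The transcription factor Mkx (-0.85 ± 0.20) was on the same side, and so were the matrix genes Dcn (-1.31 ± 0.25), Postn (-1.05 ± 0.16) and Thbs2 (-0.97 ± 0.12), while Scx, the best known tendon factor, was low, lower in OF in 5 of 5 embryos, and did not pass (-1.30, adjusted p = 0.259, and 0.0261 with the 10 libraries alone). Of 17 elastic fibre genes, 7 were higher in SM and none was higher in OF (none in OF by the 10-library fit, which called 11 in SM), with a median of -0.41. These included Fbln2 (-1.49 ± 0.23), Fbn2 (-1.12 ± 0.26), Mfap4 (-0.93 ± 0.20) and Fbn1 (-0.60 ± 0.19), the last of which lost its call without embryo 1, 3 or 4 (adjusted p up to 0.12).

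Matrix-degrading enzymes and their inhibitors gave calls in both directions. Besides Mmp13, the inhibitor gene Timp1 (1.87 ± 0.24) and Adamts18 (3.13 ± 0.51) were higher in OF, and Mmp2 (-0.85 ± 0.16), Mmp14 (-0.61 ± 0.13) and Timp2 (-0.81 ± 0.12) were higher in SM. In all, 4 of 23 measured were higher in OF and 3 in SM (median -0.22), against 5 in OF and 10 in SM with the 10 libraries alone.

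By the same rule as above, the 12 genes with the lowest fitted values included Slitrk1, Lgr5, Chodl, Cnn1, Fam19a5, Kctd8, Tmem150c, Ptgs2os2, Gm43374 and 4921534H16Rik, with the cartilage gene Cnmd and the muscle gene Myh8. Slitrk1, which encodes a neuronal membrane protein, gave 4.15, 3.89, 7.05, 5.94 and 7.51 CPM in SM and 0.195, 1.07, 0.166, 0.253 and 0.0573 CPM in OF (-4.50 ± 1.16, adjusted p = 0.00654, and 0.0524 without the replicate block). Fam19a5 lay at 21 to 33.9 CPM in SM and at 3.58 to 4.83 CPM in OF (-2.70 ± 0.43). Gm43374 lies in Kctd8 and 4921534H16Rik overlaps Clstn2, so their reads are uncertain. The calls of 4921534H16Rik (any of the 5 embryos, adjusted p up to 0.16), Ptgs2os2 and Tmem150c (embryo 1, 4 or 5, up to 0.076 and 0.098), Gm43374 (embryo 1, 0.085) and Kctd8 (embryo 4, 0.051) were lost when the embryo named was left out.

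Of 34 measured transcription factors of skull patterning, 9 were higher in SM, 2 were higher in OF and 23 did not pass the test (median -0.57), with 22 and 5 called with the 10 libraries alone. The OF counts lie near the shares over all genes (5.68% and 14.9%). Foxp2 (-1.68 ± 0.17), Zic1 (-1.58 ± 0.17), Zic4 (-1.92 ± 0.36), Lmx1b (-1.35 ± 0.34) and Prrx1 (-0.48 ± 0.10) fell in OF, and Sox6 (0.59 ± 0.12) and Sox8 (2.18 ± 0.66) rose. Six2 gave 153, 104, 84.2, 79.1 and 105 CPM in SM and 80.8, 51.3, 46.1, 47.6 and 60 CPM in OF (-0.87 ± 0.22, adjusted p = 0.00476). The front of embryo 1 exceeded the mesenchyme of embryo 4, so these groups overlapped although each embryo fell. The call of Sox8 was lost without any 1 of the 5 embryos (adjusted p up to 0.1).

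Of 17 markers used for skeletal stem cells of sutures, 4 were higher in OF and 3 in SM, with a median of -0.15. With the 10 libraries alone, 4 were higher in OF and 7 in SM. Gli1, Lepr, Cd200 (3.27 ± 0.31) and Thy1 (1.49 ± 0.32) were higher in OF, and Prrx1, Six2 and Erg were higher in SM. Lepr, the leptin receptor gene, gave 11.9, 42.1, 28.9, 44.7 and 20 CPM in SM and 149, 120, 113, 140 and 139 CPM in OF (2.29 ± 0.29, adjusted p = 7.51e-09). Erg, an ETS factor, gave 220, 110, 149, 110 and 203 CPM in SM and 120, 70.1, 80.9, 79.8 and 78.3 CPM in OF (-0.85 ± 0.26, adjusted p = 0.0291). For Erg the groups overlapped in the front of embryo 1, and the call was lost without embryo 1, 2, 3 or 5 (adjusted p up to 0.17). Axin2 and Twist1 did not pass the test, nor did Pthlh (0.77, adjusted p = 0.847), although Twist1 was called higher in SM with the 10 libraries alone (adjusted p = 0.00496).

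Some genes that mark mesenchymal populations in related tissue were chosen by name. Of these, Angptl2 (-1.08 ± 0.13), Itgb5 (-0.74 ± 0.20) and Mest (-0.63 ± 0.18) were higher in SM, and Ets2 (-0.31, adjusted p = 0.298), Cd34 (-0.50, adjusted p = 0.0884), Adamts8 (-1.06, adjusted p = 0.168), Igfbp3 (0.36, adjusted p = 0.419) and Col8a1 (-0.36, adjusted p = 0.761) did not pass. With the 10 libraries alone, Cd34 (adjusted p = 0.00367), Adamts8 (0.00127) and Igfbp3 (0.0293) passed in the same direction. Mest lost its call without embryo 5 (adjusted p = 0.074). Genes whose mutation closes sutures early in mice gave 6 of 29 higher in OF and 3 in SM (median -0.17), against 6 in OF and 9 in SM with the 10 libraries alone. Alpl, Fgfr1, Fgfr2, Fgfr3, Ptch1 and Runx2 were the 6, and Il11ra1 (-0.88 ± 0.23), Lmx1b and Msx2 were the 3. The call of Fgfr1 was lost without embryo 1, 2, 4 or 5 (adjusted p up to 0.12).

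Guidance genes gave 3 of 37 higher in OF and 9 in SM (median -0.21), and 7 and 17 with the 10 libraries alone. Over all genes the shares were 5.68% and 3.14%, and 14.9% and 13.7% with the 10 libraries alone, so that the OF counts lie near the background. The semaphorin genes Sema3b (3.31 ± 0.32) and Sema6a (1.36 ± 0.22) and the receptor gene Nrp2 (0.46 ± 0.10) were higher in OF, and Sema5a (-1.07 ± 0.15) and the plexin receptor gene Plxna2 (-0.95 ± 0.24) in SM. Epha7, an ephrin receptor gene, gave 73.9, 136, 117, 107 and 115 CPM in SM and 18.1, 25.5, 32.4, 21.4 and 33.9 CPM in OF (-2.07 ± 0.23, adjusted p = 2.22e-10). Its groups did not overlap. None of 14 retinoic acid genes and none of 5 genes of RANK ligand and colony stimulating factors passed the test. With the 10 libraries alone, 2 retinoic acid genes were higher in OF and 8 in SM, and still 0 of the RANK ligand group. The count of 2 lies near the share over all genes (14.9%). In lists this small, counts of 0 in the fit of 100 libraries lie near the shares over all genes too.

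Most cell-cycle genes were higher in OF. Of 27 measured, 17 were higher in OF and none in SM (23 and 0 with the 10 libraries alone), all 27 had a positive fold change, and the median was 0.65. Mki67, a marker of dividing cells, gave 553, 493, 533, 560 and 505 CPM in SM and 756, 728, 944, 742 and 991 CPM in OF (0.64 ± 0.17, adjusted p = 0.00553). Top2a (0.71 ± 0.16), Cdk1 (0.91 ± 0.22) and Pcna (0.51 ± 0.16) were on the same side. The front of embryo 2 held the lowest OF value for 15 of the 17 genes, a different embryo from the front that was lowest for bone matrix. The call of Mki67 was lost without embryo 5 (adjusted p = 0.065) and that of Pcna without embryo 1, 3 or 5 (up to 0.27).

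Of 24 genes of glycolysis and the hypoxia response, 6 were higher in OF and none in SM (11 and 2 with the 10 libraries alone), with a median of 0.25. Ldha (lactate dehydrogenase A) gave 293, 294, 216, 302 and 305 CPM in SM and 551, 427, 577, 561 and 812 CPM in OF (1.03 ± 0.19, adjusted p = 5.92e-05), with no overlap. Gapdh (0.81 ± 0.18), Pkm (0.79 ± 0.16) and the lactate transporter gene Slc16a3 (1.17 ± 0.25) rose as well. The front of embryo 2 was the lowest for 5 of these 6 genes.

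Markers of other cell types were present at low or moderate levels and moved partly with the regions. Of 12 skeletal muscle markers 8 passed the filter on low counts, and their sum ranged over 45.4 to 59.4 CPM in SM and over 25.2 to 221 CPM in OF. Of these, 2 were higher in OF and 1 in SM (4 and 1 with the 10 libraries alone). Ttn (titin) gave 5.64, 8.54, 4.27, 6.82 and 8.15 CPM in SM and 7.93, 41.4, 154, 85.5 and 9.63 CPM in OF (2.33 ± 0.57, adjusted p = 0.00316). The fronts of embryos 2, 3 and 4 stood far above SM and those of embryos 1 and 5 near it, and the call was lost without embryo 3 or 4 (adjusted p up to 0.079). The muscle actin gene Acta1 also rose (adjusted p = 0.0176, on 5 read pairs in SM, and lost without embryo 1, 3 or 4, up to 0.11). Myh8, the perinatal myosin gene, ran against them, with 29.7, 35, 45.2, 30.3 and 25.8 CPM in SM and 0.91, 1.29, 4.38, 0.696 and 1.78 CPM in OF (-4.44 ± 0.59, adjusted p = 9.85e-08).

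Cartilage markers were higher in SM for 5 of 10 genes and higher in OF for Col11a2 (median -1.35), with sums of 348 to 508 CPM in SM and 274 to 422 CPM in OF. With the 10 libraries alone, 8 were higher in SM and 1 in OF. Col2a1, the cartilage collagen, gave 138, 256, 238, 161 and 207 CPM in SM and 33, 103, 73.1, 35.4 and 78.1 CPM in OF (-1.73 ± 0.34, adjusted p = 0.000164, and 0.0534 without the replicate block). Acan (aggrecan, -1.27 ± 0.22), Col9a3 (-2.05 ± 0.49) and Cnmd (chondromodulin, -3.23 ± 0.67) were on the same side. None of 12 macrophage markers passed, with sums of 255 to 418 CPM in SM and 185 to 260 CPM in OF, and 9 of them were higher in SM with the 10 libraries alone. None of 6 mast cell markers passed either, with sums of 80 to 197.6 CPM in SM and 32.3 to 99.6 CPM in OF, and all 6 were higher in SM with the 10 libraries alone. Of 9 osteoclast markers, Nfatc1 was higher in SM (-0.42 ± 0.13), a call lost without embryo 1, 2 or 5 (adjusted p up to 0.12). Of 10 dermis and hypodermis markers, Pcsk6 was higher in OF (3.23 ± 0.21) and Lum in SM (-0.41 ± 0.13, lost without embryo 1, 3, 4 or 5, adjusted p up to 0.13). None of 10 dura mater markers passed (6 higher in SM with the 10 libraries alone, sums of 187 to 447 and 134 to 218 CPM), nor did any of 8 red blood cell, 3 keratinocyte, 5 Schwann and glial, 6 neuron and 3 adipocyte markers that passed the filter (of 9, 8, 7, 6 and 6 listed). The last 4 types summed to at most 57.3 CPM in any library. The part of these cells in the differences above was not tested.

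The difference between OF and SM was then compared with that of the same suture 2 days later, at E18.5, in 5 other embryos. In the same fit, 3 of 19768 genes differed between the ages (0.0152% above 0 and 0 below 0), against 743 at an unadjusted p under 0.05. These 743 are fewer than the 1 in 20 genes that chance alone would give. With DESeq2 on the 20 frontal libraries 80 genes were called. Capn6, a calpain family member, was higher in OF at E16.5 (mean within-embryo log2 ratio 1.04 ± 0.28) and lower in OF at E18.5 (-0.61 ± 0.41, SD, n = 5 embryos each), a difference of 1.66 ± 0.20 (SE, adjusted p = 5.42e-07). Its level at E16.5 was 80.6 ± 32.8 CPM in SM and 164 ± 56.7 CPM in OF, against 602 CPM in SM and 398 CPM in OF at E18.5. Ptgfrn (0.92 ± 0.17, adjusted p = 0.0156) and Socs2, a feedback inhibitor of cytokine signalling (1.47 ± 0.28, adjusted p = 0.0156), had within-embryo ratios of 0.01 and 0.20 at E16.5 and of -0.92 and -1.24 at E18.5. Ptgfrn lost its call without the embryos numbered 1, 2 or 5 (adjusted p up to 0.16) and Socs2 without any 1 number (up to 0.16). Without the pairing by embryo, 1 gene was called, so that the count depends on that block.

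Compared with the mean of the coronal, lambdoid and sagittal sutures at E16.5, the frontal difference was larger or more positive for 85 genes (0.430%) and lower for 95 (0.481%). Bone and Hedgehog genes were among the former: Spp1 (4.86 ± 0.64, adjusted p = 1.94e-06), Hhip (3.06 ± 0.43, adjusted p = 8.99e-06), Gli1 (1.85 ± 0.32), Ptch1 (1.28 ± 0.20), Runx3 (1.59 ± 0.31), Dlx5 (1.20 ± 0.19), Mmp13 (2.91 ± 0.77) and Sp7 (1.12 ± 0.28). Capn6 (1.46 ± 0.16), Fstl4 (4.08 ± 0.50), Spon1 (1.27 ± 0.20), Fhl1 (1.02 ± 0.16), Pcdh10 (2.67 ± 0.44) and Fap (1.25 ± 0.21) were also above 0. Fstl4 overlaps Gm11186, so its reads are uncertain. It lay at 0.158 CPM in frontal SM, and its frontal OF level of 8.71 CPM was below the 24 to 78.5 CPM of the other fronts. Ihh did not pass (adjusted p = 0.279), and its fitted difference is not given for want of reads in SM. Among the genes below 0 were Entpd3 (-4.17 ± 0.62, adjusted p = 2.66e-05), Prss35 (-1.44 ± 0.20), Lgi2 (-1.47 ± 0.22), Chsy1 (-0.93 ± 0.15), Ndrg1 (-1.34 ± 0.23), Zfp469 (-1.38 ± 0.24), Foxo1 (-0.95 ± 0.17), Adamts9 (-1.08 ± 0.19), Fat1 (-0.83 ± 0.15) and Uggt1 (-0.72 ± 0.13), and the mesenchyme genes Tnmd (-1.48 ± 0.36) and Acta2 (-1.30 ± 0.34). The calls of Mmp13 (adjusted p up to 0.34) and Sp7 (up to 0.24) were lost without any 1 embryo number, that of Acta2 without 1, 2, 3 or 4 (up to 0.34) and that of Tnmd without 1, 3 or 4 (up to 0.2). With voom, the calls of Runx3 (adjusted p = 0.157), Mmp13 (0.126) and Sp7 (0.065) were lost. Sutures came from different embryos, mostly of other litters, so levels were not tested between them. A larger difference need not mean a higher front. Mean OF levels of Hhip, Ptch1, Runx3 and Dlx5 were lower in the frontal suture than at every other front. Ptch1 stood at 416 against 619 to 1071 CPM, and Runx3 at 21.9 against 22.4 to 57.1 CPM. Mean OF levels of Spp1 (517 against 7.75 to 74.4 CPM) and Mmp13 (13.3 against 1.61 to 12.5 CPM) were higher than at every other front. For Runx3 and Mmp13 the nearest front was thus close to the frontal one. Mean OF levels of Gli1 and Sp7 lay within the range.

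The same genes were then set against 1 front at a time. Nearly all of them had been taken for a difference from the mean of these fronts, so the values that follow are a description with no test. The within-embryo log2 ratio of Spp1 had a mean of 6.39 in the frontal suture, 1.83 in the sagittal, 3.17 and 0.48 in the lambdoid (parietal and interparietal OF) and 1.76 and 0.61 in the coronal suture (frontal and parietal OF). The frontal embryos did not overlap with those of any of these 5 fronts, and at E18.5 the frontal ratio was 7.32. Capn6 had a ratio of 1.04 in the frontal suture and of -0.66 to -0.12 at the other fronts. Entpd3 had a ratio of 2.15 in the frontal suture and of 4.41 to 5.75 at the others. Its OF level was 25.6 CPM in the frontal suture and 15.1 to 44.9 CPM at the others. Its SM level was 6.18 CPM and 0.232 to 0.649 CPM, so the ratios of the others rest on few reads in SM. For both genes the frontal embryos likewise overlapped with none of the other fronts.

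Of the 26 called genes named in this comparison, 5 overlapped with no other front (Capn6, Spp1, Entpd3, Chsy1 and Fat1), and for the other 21 the frontal embryos overlapped with those of 1 front or more. All 26 had passed the test against the mean of these fronts, and the share over all genes was not computed. The count is therefore a description only. Mmp13 had a mean log2 ratio of 3.66 in the frontal suture, 4.05 and 2.69 at the lambdoid fronts (parietal and interparietal OF), 0.64 in the sagittal suture, and -0.24 and -0.48 at the coronal fronts. Only at the coronal fronts did no embryo overlap with the frontal ones. The frontal and sagittal ratios lay close together for Runx3 (3.35 and 3.16), Fstl4 (3.61 and 3.36) and Fhl1 (1.22 and 1.02), and their embryos overlapped. Tnmd had a ratio of -2.65 in the frontal suture and of -2.66 at the frontal bone's front of the coronal suture. The frontal embryos overlapped with those of all 5 other fronts for Acta2, whose ratio was -1.95 in the frontal suture and -1.07 to -0.20 at the others. Embryos also overlapped at 3 fronts for Spon1, at 2 each for Dlx5 and Fap and at 1 for Pcdh10.

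For the Hedgehog targets too, the frontal ratio lay close to the sagittal one, as for Runx3 and Fstl4 above. Hhip had a mean log2 ratio of 4.84 in the frontal and 4.88 in the sagittal suture, of 1.71 and 1.72 at the lambdoid fronts and of -0.89 and -1.29 at the coronal fronts. Its SM level was 3.93 CPM in the frontal, 4.52 CPM in the sagittal, 40.3 CPM in the lambdoid and 498 CPM in the coronal suture. The frontal and sagittal ratios also lay close together for Ptch1 (3.29 and 3.31), Gli1 (3.14 and 2.92) and Sp7 (4.06 and 4.04), and the frontal embryos lay above those of both coronal fronts for each. Foxo1 had a ratio of 0.54 in the frontal suture, 1.73 in the sagittal suture, and 0.53 and 0.21 at the coronal fronts.

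**Figure D5:**
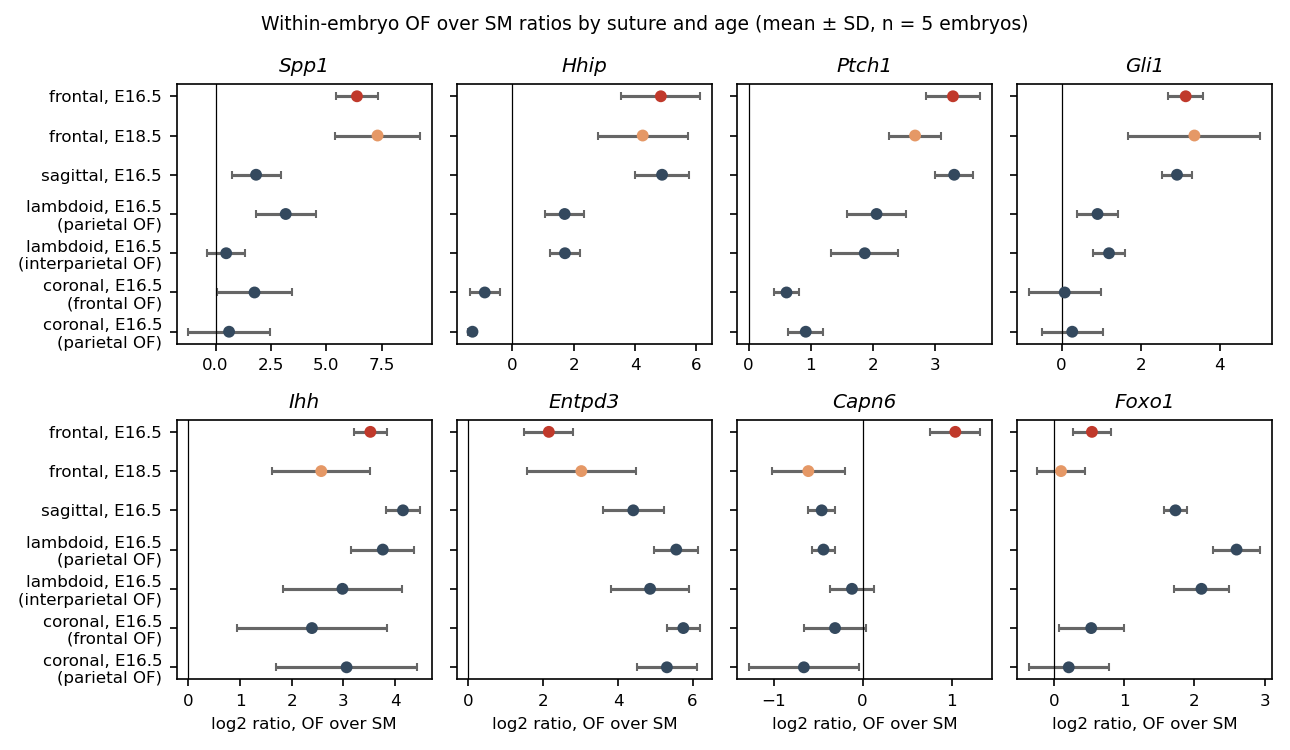
Mean ± SD (n = 5 embryos) of the within-embryo log2 ratio of OF over SM for 8 genes (horizontal axis) in the frontal suture at both ages and at the other fronts at E16.5 (rows). Spp1 and Capn6 at the frontal suture at E16.5 stand above the other fronts of that age, Hhip, Ptch1 and Gli1 have similar means in the frontal and sagittal sutures, and Entpd3 is lowest in the frontal suture.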

How the data were processed

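RNA of laser-captured SM and OF was amplified, made into Nextera XT libraries and sequenced by the authors. Per the submitters' processing notes and the file headers, reads were trimmed with cutadapt, aligned to mm10 with STAR 2.5.3a and assigned to GENCODE genes with featureCounts 1.6.4 without regard to strand. The deposited count values are whole numbers of read pairs on each of 55487 genes, without normalization. Rows without a gene name held 0.0019% of counts and were kept under their gene identifiers.

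The first libraries of all sutures and both ages (100) entered 1 fit in R 4.3.3. The filter required 1 CPM or more in over 10% of libraries and left 19768 genes, and TMM scaled the libraries. The quasi-likelihood model of edgeR 4.0.16 held the embryo as a block and 12 effects of OF over its own SM. All tests were two-sided, and p-values were adjusted by Benjamini and Hochberg's method over all genes tested (threshold 0.05). The authors scaled libraries of further craniofacial sutures together by TMM and then used voom, which served here as an alternative on the 100 libraries. FPKM values were computed from the counts and gene lengths. Region pairs share an embryo and a litter label. The residuals of same-numbered libraries correlated by 0.173, 0.158, 0.077, 0.046 and -0.0001. Counts were also simulated with known changes in the frontal OF alone. The fit recovered 9, 30, 31 and 40 of 50 genes changed by a fold of 1.5, 2, 3 and 4, with 4 false calls over 19768 genes. Far fewer genes differed there than were called in the data, so recovery in the data may differ. Single values were tested by exact permutation with scipy 1.17.1, in Python 3.11.15. The alternatives comprised limma-voom (limma 3.58.1), DESeq2 1.42.0, other scaling and filters, no embryo block, the frontal libraries alone, each litter and each embryo left out. Counts limit the precision at low levels, and intervals of counting do not cover amplification.

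Named genes were the 12 with the highest and the 12 with the lowest fold change (called, 5 of 5 embryos in the same direction, a mean of at least 5 CPM in the higher region), up to 4 per gene list and direction by smallest p, a fixed set of bone, Hedgehog and mesenchyme genes, and the 10 with the smallest p in each direction of each difference test. Genes outside this rule were chosen after their values were seen. Members and lists were chosen with earlier results of these data known. RefSeq windows (GRCm38.p6) were matched by symbol for 11941 of the genes tested.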

Additional observations from a re-analysis of the deposited data

Results flagged for a closer look

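Of 94 groups of 5 libraries examined for genes and shares given above, 6 held a library far from the other 4 by Dixon's criterion, and chance alone flags about 1 in 20. These were the SM of embryo 4 for Alpl (32.9 CPM, below the others), the SM of embryo 2 for Bglap2 (0.0938 CPM, the only one above 0), the OF of embryo 1 for Gli1 (69.1 CPM) and for Erg (120 CPM), the SM of embryo 3 for Ldha (216 CPM, below the others) and the OF of embryo 2 for Slitrk1 (1.07 CPM).

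The difference between OF and SM was itself different between ages for 3 genes, by the contrast of both effects in the edgeR fit: Capn6 (1.66 on the log2 scale, E16.5 less E18.5), Ptgfrn (0.92) and Socs2 (1.47). The calls of the last 2 depended on single embryos.

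Against the mean of the other sutures at E16.5, it was different by the same kind of test for the 26 genes that follow. Above 0 were Capn6 (1.46), Fstl4 (4.08), Spp1 (4.86), Hhip (3.06), Fhl1 (1.02), Spon1 (1.27), Ptch1 (1.28), Dlx5 (1.20), Pcdh10 (2.67), Fap (1.25), Sp7 (1.12), Runx3 (1.59), Gli1 (1.85) and Mmp13 (2.91). Below 0 were Prss35 (-1.44), Entpd3 (-4.17), Lgi2 (-1.47), Chsy1 (-0.93), Ndrg1 (-1.34), Zfp469 (-1.38), Foxo1 (-0.95), Adamts9 (-1.08), Fat1 (-0.83), Uggt1 (-0.72), Acta2 (-1.30) and Tnmd (-1.48).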

How the results depend on the processing

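All counts here are genes with an adjusted p under 0.05, and the cause of a change was not tested. For OF against SM (1743 genes, 1122 higher in OF and 621 in SM), the frontal libraries alone gave 5662 (2950 and 2712), DESeq2 on the same libraries 5741 (2978 and 2763) and these libraries without the replicate block 5058 (2634 and 2424). The litter of embryos 1 and 2 gave 469 (346 and 123) and that of embryos 3 to 5 gave 970 (670 and 300), each with fewer libraries. Median-ratio scaling gave 1685 (913 and 772), library totals 1455 (814 and 641), no filter 1749 and voom 2047 (1125 and 922). Without the replicate block in all 100 libraries, 1565 genes were called (1020 and 545), of which 1488 were among the 1743. Leaving out 1 embryo gave 1189 to 1452 genes (756 to 972 higher in OF, 420 to 480 in SM).

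For the difference between ages (3 genes), leaving out 1 embryo number gave 1 to 5. Median-ratio scaling gave 5 (3 above 0 and 2 below), library totals 1 (1 above 0), no filter 96 (66 and 30), no replicate block 1 (1 above 0), DESeq2 80 (34 and 46) and the 20 frontal libraries 3 (1 and 2). Of these last 3 genes, 1 was also called in the fit of all 100 libraries. For the difference from the other sutures (180 genes, 85 above 0 and 95 below), library totals gave 127 (78 and 49), no filter 350 (197 and 153), no replicate block 121 (66 and 55), and leaving out 1 number gave 86 to 120 (40 to 64 and 35 to 60).

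Of 159 named genes called between OF and SM, 89 kept direction and call in every alternative and 70 lost the call in at least 1. Of 14 named genes not called, 10 gained a call in at least 1, among them Twist1, Scx, Cd34 and Adamts8 with the frontal libraries alone and Col1a1 and Col1a2 without the filter. Among the genes named in that comparison only Axin2, which was not called, changed sign, to 0.11 within the litter of embryos 1 and 2. For genes with under 10 read pairs over the 5 SM libraries, depth limits the fold.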
